A study of Mus musculus with 16 samples.

Results

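The question asked here was which genes responded to nicotinamide riboside (NR) differently in hTau.P301S and wild-type (WT) mice. For each gene the contrast was (hTau.P301S + NR minus hTau.P301S) minus (WT + NR minus WT) on the log2 scale, called the interaction below. A negative value means that the level with NR relative to vehicle was lower in the hTau.P301S genotype than in WT, and a positive value that it was higher. All 16 hippocampal RNA-seq libraries of the series entered the contrast, 8 from each genotype and 4 from each of the 4 groups, and 17555 of 54532 listed genes passed the filter on low counts. The WT group received vehicle water and the WT + NR group 6 mM NR in drinking water, and the hTau.P301S and hTau.P301S + NR groups received the same 2 treatments. The hTau.P301S mice carry human Tau with the P301S mutation driven by the Thy1 promoter, which is active in neurons, and the WT mice lack it. The sample labels give 3 months of treatment from 12 to 15 months of age for all 4 groups, while the study's text also gives younger ages and a shorter treatment. Where 4 values or ranges are given in group order, they are those of WT, WT + NR, then hTau.P301S and last hTau.P301S + NR. Each library came from 1 mouse, and every result was computed with all mice and again without hTau.P301S replicate 1, whose library stood apart.

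NR is a vitamin B3 form that cells phosphorylate to nicotinamide mononucleotide and then convert to NAD+. NAD+ carries electrons in metabolism and is consumed by sirtuins, PARP enzymes, CD38 and SARM1. Tau is the microtubule-binding protein that forms neurofibrillary aggregates in tauopathies, and the P301S mutation makes it aggregate more readily. A gene stands out in such a contrast when the difference between NR and vehicle appears in 1 genotype only, has opposite directions in the 2 genotypes, or differs in size.

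Total counts per mouse ran from 16490261 to 21915362. In hTau.P301S replicate 1, 14.4% of counts came from mitochondrial genes and 19467 genes had a count, whereas the other 15 libraries held 4.48% to 7.07% and at least 22199 genes. The mitochondrial share, in group order, was 5.25 ± 0.85%, 4.82 ± 0.31%, 7.91 ± 4.47% and 5.49 ± 0.86% (SD, n = 4 each). Its interaction was -1.99 percentage points (two-sided exact permutation test of the genotype labels within each treatment, p = 0.623) and 0.185 without hTau.P301S replicate 1 (exact permutation p = 0.839). For the number of genes with a count the interaction was 2131 (exact permutation p = 0.0906), and 1373 without that library (exact permutation p = 0.153). The shuffled labels stand for no genotype difference in either treatment, so these p-values do not test the interaction alone. Summed markers of striatal medium spiny neurons, which the hippocampus should hold at low levels, reached 3071 CPM (normalised counts per 1000000) in WT replicate 2, 642 CPM in WT + NR replicate 3 and 1147 CPM in hTau.P301S + NR replicate 4, while hippocampal pyramidal and granule cell markers were 872, 790.1 and 760.0 CPM there. In the 13 other libraries the striatal sum lay between 204 and 388 CPM and the hippocampal sum between 1266 and 1817 CPM. Choroid plexus markers varied from 124 to 14969 CPM among mice, in every group. The labels give no sex, and Y-linked genes had 873 to 5275 counts in 1, 1, 2 and 3 libraries in group order and at most 3 counts in the others.

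**Figure D1:**
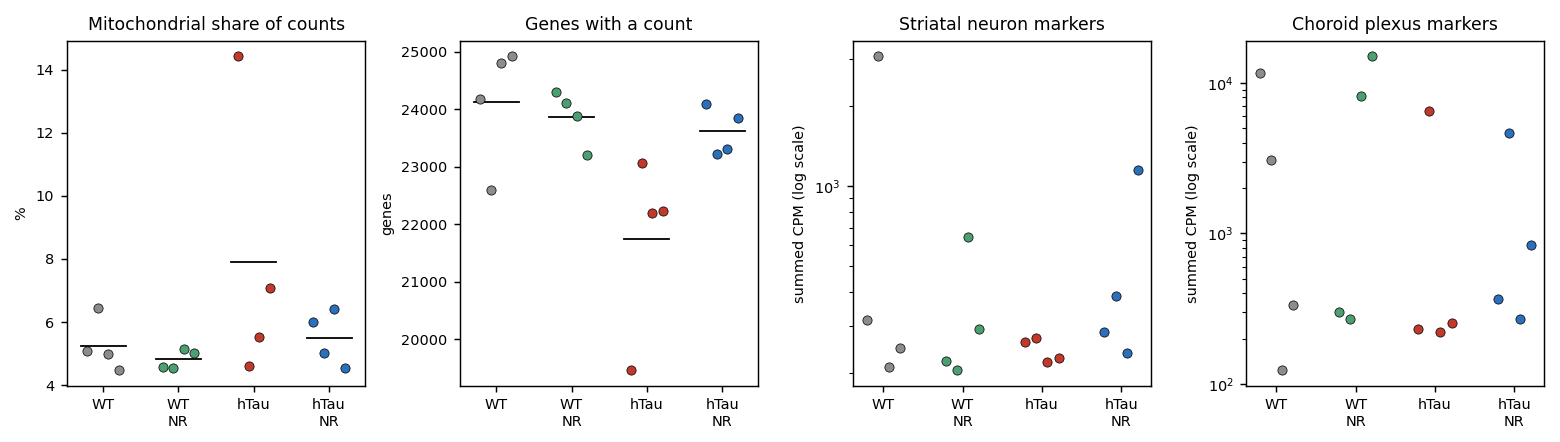
Mitochondrial share of counts (%), number of genes with a count, and summed CPM (log scale) of striatal and choroid plexus markers in each of the 16 mice, by group (hTau stands for hTau.P301S). Points are mice and black lines group means. The hTau.P301S mouse at 14.4% is also the one with 19467 genes, and 3 libraries from 3 different groups stand high for striatal markers.

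No gene passed an adjusted p of 0.05 in edgeR's quasi-likelihood test, with 0 of 17555 genes (0.0%) called and a smallest adjusted p of 0.172. At an unadjusted p under 0.05 there were 1390 genes (7.92%), 578 positive (3.29%) and 812 negative (4.63%). Without hTau.P301S replicate 1, again 0 of 17897 genes (0.0%) were called, with a smallest adjusted p of 0.0594, and 1343 genes (7.5%) had an unadjusted p under 0.05, 743 positive (4.15%) and 600 negative (3.35%). DESeq2, an alternative to edgeR that models the same counts, called 18 genes over the 16 mice (0.107% of 16886 with an adjusted p), 3 positive and 15 negative. Without hTau.P301S replicate 1 it called 36 (0.219% of 16467), 12 positive and 24 negative, and 17 of the 18 were among them. Another model, limma with a weight for each library, called 15 genes, 7 positive and 8 negative, of which 9 were also among the 18 of DESeq2. Whether any gene passed thus depended on the model.

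Leaving out hTau.P301S replicate 1 narrowed the contrast. The median standard error of a gene's interaction was 0.44 with all 16 mice and 0.32 without that library, and the median absolute interaction was 0.39 and 0.25. Of the 1390 genes with an unadjusted p under 0.05, 1388 kept their sign and 858 (61.7%) also kept an unadjusted p under 0.05. This held for 464 of the 578 positive genes (80.3%) and for 394 of the 812 negative genes (48.5%). Among the 1390, the NR effect was the larger of the 2 in hTau.P301S mice for 1287 (92.6%), where all genes tested gave 77.4%, and the effects had opposite signs in the genotypes for 1163 (83.7%), where all genes gave 46.8%. The 1390 were selected on the difference of the 2 effects, which favours both arrangements, so these shares describe them and test nothing. Without hTau.P301S replicate 1 the NR effect was larger in hTau.P301S mice for 67.7% of all genes.

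The negative genes with the smallest p that also kept an unadjusted p under 0.05 without hTau.P301S replicate 1 are described here by 9 of them, Htra1, Plin4, Nfkbia, Gm2260, Arrdc2, Sgk1, Gabrr2, Gm13375 and Mfsd2a. For 7 of them, all except Gm2260 and Gabrr2, every vehicle-treated hTau.P301S mouse was above each of the 12 other mice, an arrangement found in 0.9% of all genes tested. For 8 of them, all except Gm2260, the 4 hTau.P301S + NR mice were all below the 4 hTau.P301S mice, as for 5.28% of all genes. These shares describe genes chosen for this contrast and add no evidence to it.

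Htra1 (ENSMUSG00000006205, chromosome 7, 130936111 to 130985660 in GRCm38), which encodes a secreted serine protease, had the smallest p of all genes. Its level was 102, 124, 131 and 118 CPM in the 4 WT mice and 161, 147, 125 and 142 CPM with NR. In hTau.P301S mice it was 305, 287, 206 and 247 CPM, and with NR 139, 126, 134 and 115 CPM. All 4 vehicle-treated hTau.P301S mice lay above the other 12, and the NR-treated hTau.P301S mice lay within the range of the 2 WT groups. NR was associated with a log2 change of -1.02 (standard error 0.15) in hTau.P301S and 0.28 (standard error 0.15) in WT mice. The interaction was -1.30 (standard error 0.21, adjusted p = 0.172, edgeR), and -1.21 (standard error 0.18, adjusted p = 0.0594, edgeR) without hTau.P301S replicate 1. DESeq2 gave an adjusted p of 6.44e-06 and limma one of 0.00823.

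Plin4 (ENSMUSG00000002831, chromosome 17, 56100591 to 56109803), a perilipin that coats lipid droplets, had the largest interaction of the protein-coding genes among the 9. It was at 5.64, 2.75, 2 and 5.14 CPM in WT and 5.55, 4.81, 7.31 and 7.84 CPM in WT + NR mice. The hTau.P301S mice had 29.1, 149, 36.7 and 60.8 CPM, and those given NR 4.88, 8.61, 8.63 and 5.44 CPM. The lowest hTau.P301S mouse was thus above the highest of the other 12. The interaction was -4.04 (standard error 0.66, adjusted p = 0.172, edgeR) and -4.29 (standard error 0.60, adjusted p = 0.0594, edgeR) without replicate 1.

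Nfkbia (ENSMUSG00000021025, chromosome 12, 55489410 to 55492647) encodes the inhibitor that holds NF-kappaB in the cytoplasm and is itself a transcriptional target of NF-kappaB. Its level was 18.2, 17.4, 15.8 and 14.9 CPM in WT, 17.8, 17.2, 20.3 and 21.3 CPM in WT + NR, 40.1, 47.5, 29.3 and 40.8 CPM in hTau.P301S and 19, 18.5, 23 and 17.4 CPM in hTau.P301S + NR mice. The hTau.P301S group again stood alone above the rest. The interaction was -1.23 (standard error 0.22, adjusted p = 0.28, edgeR) and -1.21 (adjusted p = 0.162, edgeR) without replicate 1.

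Sgk1 (ENSMUSG00000019970, chromosome 10, 21882184 to 21999903), the serum- and glucocorticoid-regulated kinase, was at 80.5, 53, 56.2 and 55.7 CPM in WT and 98.3, 68.9, 119 and 110.2 CPM in WT + NR mice. It was at 139.6, 317, 168 and 299 CPM in hTau.P301S and 74, 74.8, 136 and 58.8 CPM in hTau.P301S + NR mice. The margin between the lowest hTau.P301S mouse and the highest of the others was small here. NR was associated with a change of 0.69 (standard error 0.30) in WT and -1.43 (standard error 0.31) in hTau.P301S mice on the log2 scale, and the interaction was -2.12 (standard error 0.43, adjusted p = 0.426, edgeR). Without replicate 1 it was -2.29 (standard error 0.39, adjusted p = 0.139, edgeR).

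The sequences before the start sites of Sgk1 and Nfkbia are shown because each holds a match to the response element of a factor that these genes are known targets of. They are RefSeq sequence of GRCm38.p6, the 250 bases before the start, read 5′ to 3′ on the gene's strand. Capitals mark the match.

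Sgk1, chr10:21993640-21993889, plus strand: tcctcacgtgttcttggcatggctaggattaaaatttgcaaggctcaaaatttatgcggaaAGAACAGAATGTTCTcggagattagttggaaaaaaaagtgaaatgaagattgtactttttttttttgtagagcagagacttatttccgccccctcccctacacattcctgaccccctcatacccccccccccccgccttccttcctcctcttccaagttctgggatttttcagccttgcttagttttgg

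Nfkbia, chr12:55492648-55492897, minus strand: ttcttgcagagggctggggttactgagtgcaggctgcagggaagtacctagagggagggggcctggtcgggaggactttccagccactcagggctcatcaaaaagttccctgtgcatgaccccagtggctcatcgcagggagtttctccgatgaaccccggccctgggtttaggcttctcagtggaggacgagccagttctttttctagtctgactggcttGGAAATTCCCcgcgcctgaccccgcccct

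The Sgk1 window is 1 of 6 listed for this gene and holds the palindromic glucocorticoid response element, AGAACA and TGTTCT with 3 bases between them, from position -189 relative to the start. Searched on both strands, this motif occurs in 3 of 32851 windows of that length (0.00913%). The Nfkbia window holds an NF-kappaB motif, GGGAA and TTCC with 1 base between them, on the opposite strand from position -29, and 93 of the windows (0.283%) hold it. These matches describe the letters in the windows and say nothing of binding in these mice.

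Arrdc2, an arrestin-domain protein, and Mfsd2a, the transporter of lysophosphatidylcholine-bound omega-3 fatty acids at the blood-brain barrier, followed the same arrangement. Arrdc2 ran from 8.96 to 13 CPM in the 12 other mice and from 16.5 to 52.2 CPM in hTau.P301S mice (interaction -1.81, standard error 0.36, adjusted p = 0.426, edgeR). Mfsd2a ran from 9.87 to 17.8 CPM against 20.6 to 44.2 CPM (interaction -1.52, standard error 0.34, adjusted p = 0.484, edgeR). In both genes the WT, WT + NR and hTau.P301S + NR groups overlapped, and the hTau.P301S group alone was apart.

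Gabrr2, a GABA-A receptor subunit, was low throughout, at 0.336 to 1.03 CPM in WT, 0.734 to 2.36 CPM in WT + NR, 2.12 to 5.99 CPM in hTau.P301S and 0.729 to 1.41 CPM in hTau.P301S + NR mice. Its NR effects had opposite signs, 1.23 (standard error 0.44) in WT and -1.77 (standard error 0.43) in hTau.P301S mice, and the interaction was -3.0 (standard error 0.62, adjusted p = 0.426, edgeR). Gm13375, annotated as an antisense transcript, had little spread, with hTau.P301S mice from 16 to 17.9 CPM and the 12 others from 9.57 to 14.5 CPM (interaction -0.89, standard error 0.19, adjusted p = 0.454, edgeR). The counting is not stated to use strand, so reads from both strands could be counted there. Gm2260, an unprocessed pseudogene whose reads may come from a similar copy, differed in arrangement from the others. It was at 0.056 to 0.219 CPM in WT, 0.514 to 6.21 CPM in WT + NR, 0.256 to 2.88 CPM in hTau.P301S and 0.0486 to 0.47 CPM in hTau.P301S + NR mice. Its interaction of -6.53 (standard error 1.20, adjusted p = 0.28, edgeR) joined a log2 difference between WT + NR and WT mice of 4.15 (standard error 0.88) to one of -2.38 (standard error 0.82) between the hTau.P301S groups. In WT libraries 3 counts would be 0.158 to 0.168 CPM, and in hTau.P301S + NR libraries 0.134 to 0.168 CPM. Levels in these groups thus rest on few reads, and the size of these folds is uncertain.

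Prl, which encodes the pituitary hormone prolactin, was among the 5 smallest adjusted p of DESeq2 (0.000281) with Htra1, Plin4, Gm2260 and Nfkbia. It had no count in any WT library, where 3 counts would be 0.158 to 0.168 CPM. It was at 0.668, 5.03, 0.494 and 5.36 CPM in WT + NR, 0.427, 1.11, 0 and 0.0554 CPM in hTau.P301S and at most 0.0896 CPM in hTau.P301S + NR mice. With 1 group at 0, its fitted interaction depends on the prior count and no fold is given. The WT + NR mice held the 2 highest values, both above 5 CPM.

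**Figure D2:**
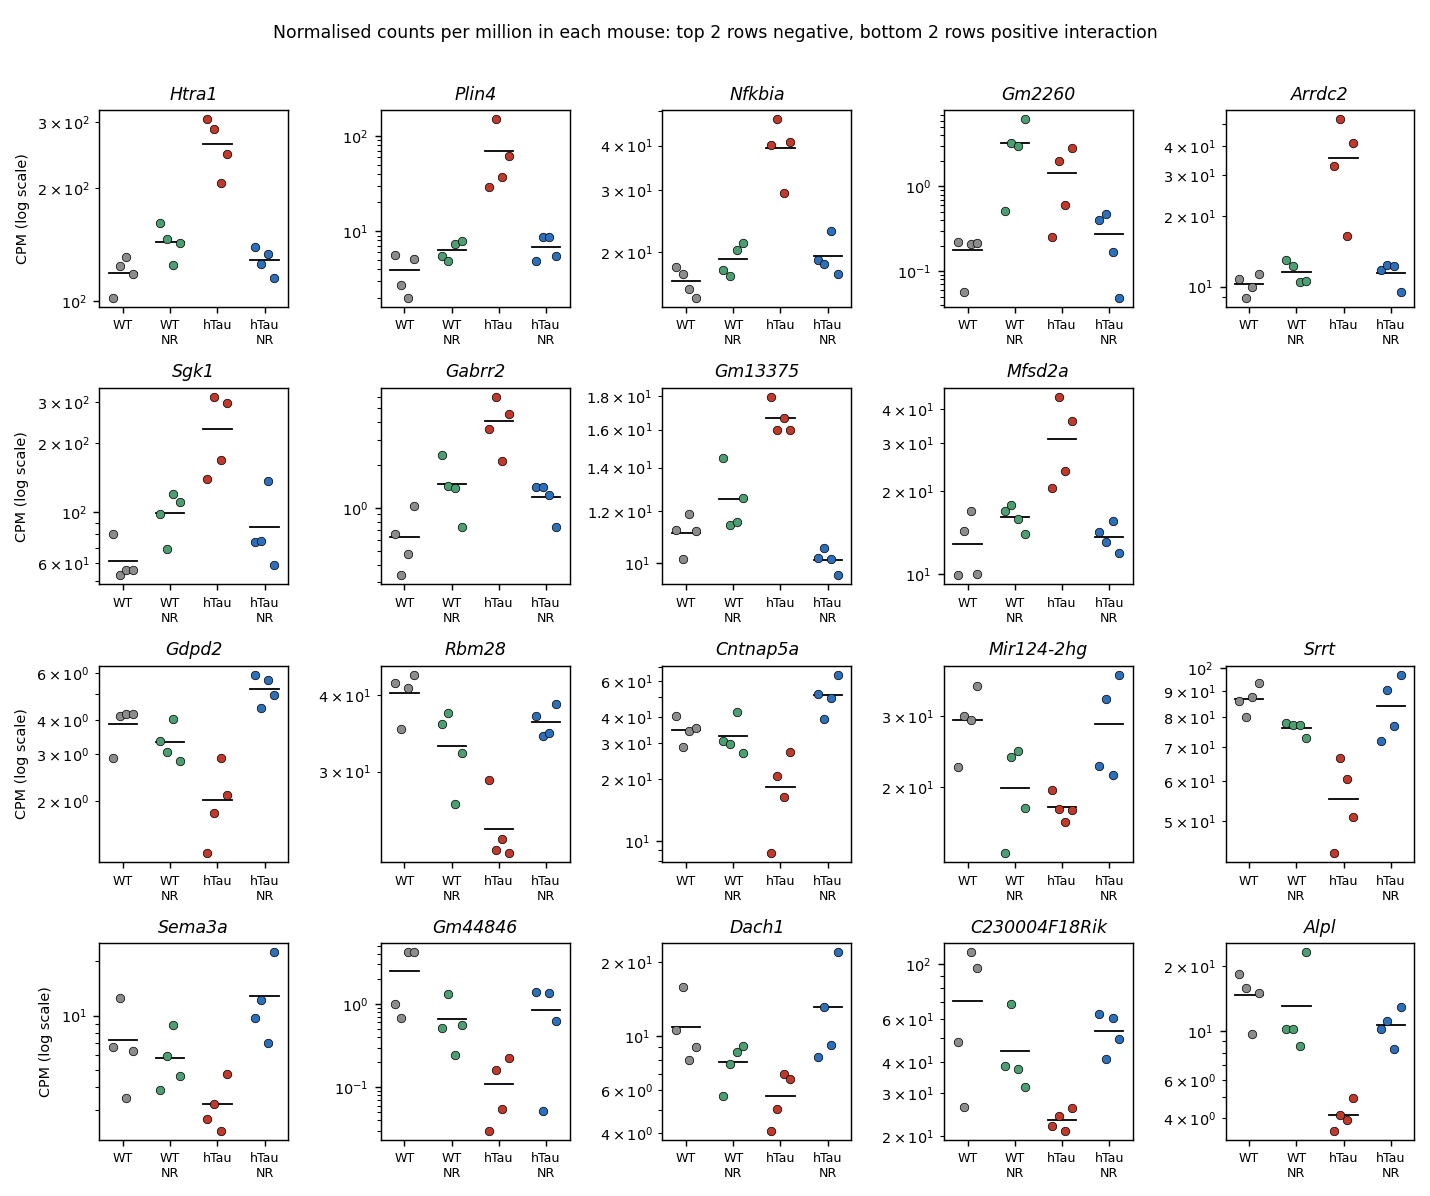
CPM (log scale) of the 9 negative genes (top 2 rows) and 10 positive genes (bottom 2 rows) in each mouse, by group (hTau stands for hTau.P301S), with black lines at group means and a value of 0 drawn at 0.03 CPM. In most panels of the top rows the 4 vehicle-treated hTau.P301S mice lie above the 12 others, as for Htra1 at 206 to 305 CPM, and in the bottom rows they lie lowest or nearly so.

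The 10 positive genes chosen in the same way were Gdpd2, Rbm28, Cntnap5a, Mir124-2hg, Srrt, Sema3a, Gm44846, Dach1, C230004F18Rik and Alpl. For 9 of them, all except Gm44846, the 4 hTau.P301S + NR mice were all above the 4 hTau.P301S mice (6.5% of all genes). The hTau.P301S mice lay below each of the 12 others for 3, Srrt, C230004F18Rik and Alpl (0.701% of all genes). In WT mice NR and vehicle did not overlap for 2 of the 19 named genes, Gm2260 and Srrt (0.826% of all genes in either direction).

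Rbm28 (ENSMUSG00000029701, chromosome 6, 29123576 to 29165006), a nucleolar RNA-binding protein of ribosome assembly, was at 41.8, 35.2, 41.1 and 43.2 CPM in WT, 36, 37.4, 26.6 and 32.2 CPM in WT + NR, 29.1, 22.4, 23.3 and 22.1 CPM in hTau.P301S and 36.9, 34.3, 34.7 and 38.7 CPM in hTau.P301S + NR mice. The hTau.P301S mice were lowest apart from an overlap with 1 WT + NR mouse, and NR was associated with a lower level in WT and a higher one in hTau.P301S mice. The interaction was 0.87 (standard error 0.20, adjusted p = 0.484, edgeR), and 0.98 (standard error 0.16, adjusted p = 0.112, edgeR) without replicate 1. DESeq2 gave 0.0148 and 6.46e-05 in the same 2 sets of mice.

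Srrt, the ARS2 protein that links the RNA cap-binding complex to RNA processing and decay, was at 86.2, 80, 87.8 and 93.6 CPM in WT, 78, 77.4, 77.1 and 72.7 CPM in WT + NR, 43.2, 66.6, 60.6 and 51 CPM in hTau.P301S and 71.9, 90.5, 76.9 and 97 CPM in hTau.P301S + NR mice. Every WT + NR mouse was below every WT mouse, and every hTau.P301S + NR mouse above every hTau.P301S mouse. The interaction was 0.79 (standard error 0.20, adjusted p = 0.558, edgeR).

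Among the membrane and guidance genes, Gdpd2, a glycerophosphodiester phosphodiesterase, had 2.9 to 4.22 CPM in WT, 2.82 to 4.05 CPM in WT + NR, 1.28 to 2.89 CPM in hTau.P301S and 4.44 to 5.92 CPM in hTau.P301S + NR mice (interaction 1.59, standard error 0.36, adjusted p = 0.484, edgeR). The NR-treated hTau.P301S mice were here above all 12 others, not only above their own vehicle group. Cntnap5a, a neurexin-family adhesion protein, had 28.5 to 40.6, 26.8 to 42.3, 8.72 to 27.1 and 39.1 to 64.4 CPM in group order (interaction 1.59, standard error 0.38, adjusted p = 0.558, edgeR). Sema3a, a secreted repellent of growing axons, had 3.48 to 12.5, 3.85 to 8.88, 2.29 to 4.71 and 7.06 to 22.4 CPM (interaction 2.31, standard error 0.60, adjusted p = 0.558, edgeR). For Sema3a the highest value, 22.4 CPM, was in hTau.P301S + NR replicate 4, one of the 3 libraries high for striatal markers, and the interaction without those 3 libraries and without hTau.P301S replicate 1 was 1.71.

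Alpl, the tissue-nonspecific alkaline phosphatase, was at 18.4, 15.7, 9.7 and 14.9 CPM in WT, 10.2, 10.3, 8.54 and 23 CPM in WT + NR, 3.5, 4.13, 3.92 and 4.93 CPM in hTau.P301S and 10.2, 11.2, 8.29 and 12.9 CPM in hTau.P301S + NR mice (interaction 1.54, standard error 0.42, adjusted p = 0.558, edgeR). Its vehicle-treated hTau.P301S mice formed a tight low group. Dach1, a transcription factor, Mir124-2hg, a host transcript of the neuronal microRNA miR-124, C230004F18Rik, a long noncoding RNA that overlaps Cdr1 on the other strand, and Gm44846, an unclassified transcript within Grm5, had interactions of 1.68, 1.24, 1.87 and 4.73, each with an adjusted p of 0.558 in edgeR. Without the 3 libraries high for striatal markers Dach1 was at 1.12, and at 1.0 without hTau.P301S replicate 1 as well. Gm44846 reads cannot be told apart from pre-mRNA of Grm5, and its hTau.P301S level was at most 0.222 CPM.

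**Figure D3:**
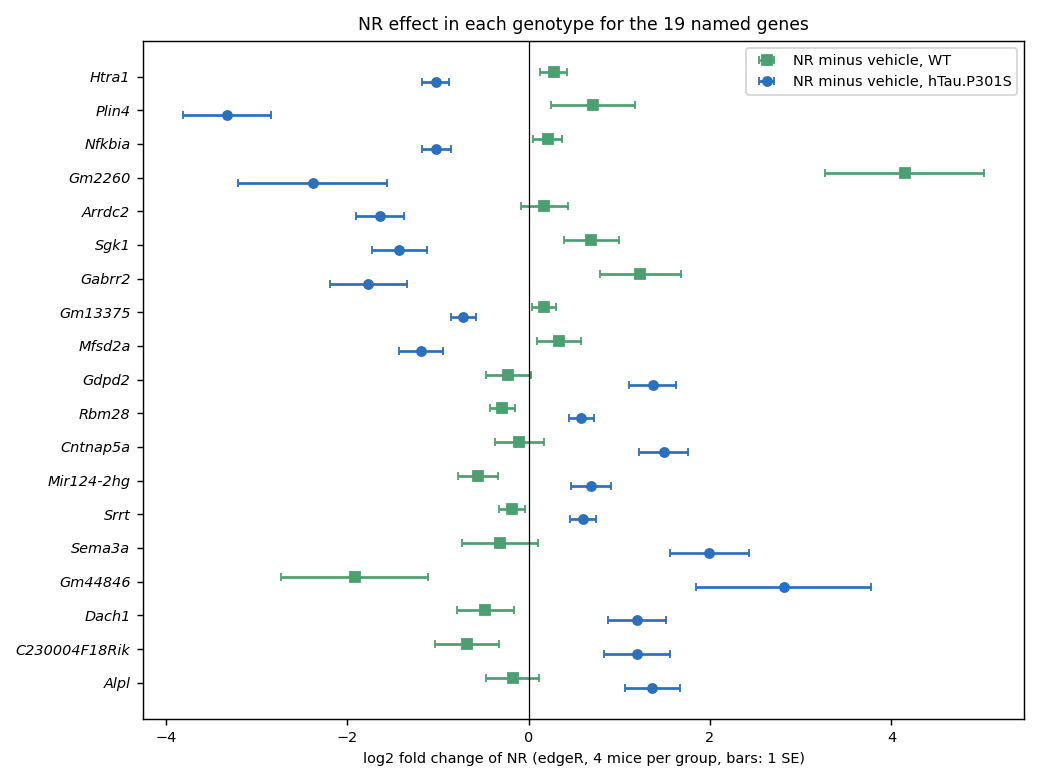
Log2 fold change of NR relative to vehicle in WT (green squares) and hTau.P301S mice (blue circles) for the 19 named genes, with bars of 1 standard error from edgeR and 4 mice in each group. In all 19 genes the 2 effects have opposite signs, and the effect is larger in hTau.P301S mice for all but Gm2260.

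In all 19 genes the NR effect took opposite signs in the 2 genotypes, and it was the larger of the 2 in hTau.P301S mice in every one except Gm2260. The genes were chosen on the interaction, so these counts describe them and are not a test. With any single mouse left out the interaction of Htra1 stayed between -1.40 and -1.21, that of Plin4 between -4.29 and -3.33, that of Sgk1 between -2.43 and -1.93, that of Rbm28 between 0.78 and 0.98 and that of Srrt between 0.70 and 0.89. With a term for the presence of Y-linked counts the values were -1.31, -3.80, -2.07, 0.88 and 0.82 in the same order. Without the 3 libraries high for striatal markers and hTau.P301S replicate 1 they were -1.25, -3.98, -1.99, 0.90 and 0.66.

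Some groups of negative genes depended on 1 mouse. Ribosomal protein genes, which build the cytosolic ribosome, had 0 positive and 20 negative genes at an unadjusted p under 0.05 of 78 tested and a median interaction of -1.87, against -0.02 over all genes. Without hTau.P301S replicate 1 it was 0 and 0, with a median of 0.02 against 0.01. Over all genes, 3.29% were positive and 4.63% negative at that p with 16 mice, and 4.15% and 3.35% without hTau.P301S replicate 1. Rplp1, a ribosomal stalk protein, was at 8466 CPM in that mouse and 239 to 854 CPM in the 15 others, and its interaction went from -2.83 to -0.22 when the mouse was left out. Nuclear-encoded subunits of the respiratory chain had 0 and 14 of 74 with a median of -1.49, and 0 and 1 with a median of -0.07 without it. Cox6a1, a cytochrome c oxidase subunit, was at 3244 CPM in that mouse and 248 to 440.0 CPM in the others. Atp5g1, a subunit of the ATP synthase ring, was the 1 gene of this list that kept an unadjusted p under 0.05, with interactions of -1.65 and -0.61. The mitochondrially encoded genes went from 0 and 2 of 15 with a median of -0.56 to 0 and 0 with -0.05. MHC genes went from 0 and 1 of 20, near the share over all genes, with a median of -0.59 to 0 and 0 with -0.13. The mouse with these high values is the library with the high mitochondrial share and few genes detected.

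**Figure D4:**
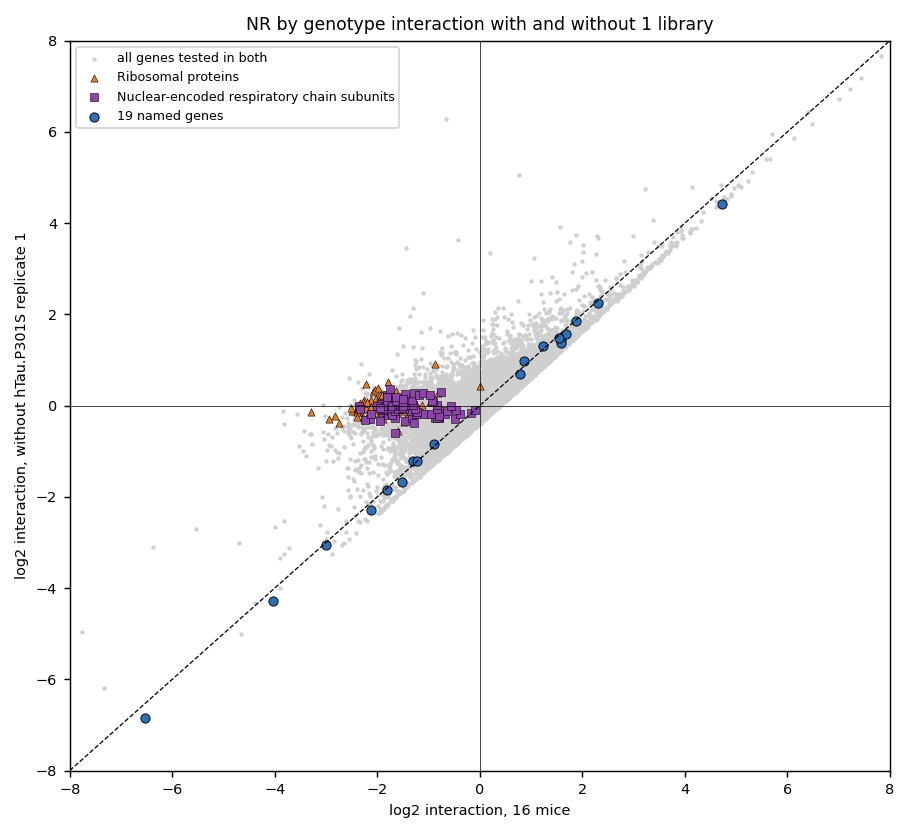
Log2 interaction with 16 mice (horizontal) and without hTau.P301S replicate 1 (vertical) for 17552 genes, with 3 more beyond the axes and a dashed line of equality. Ribosomal protein and respiratory chain genes lie left of 0 horizontally and near 0 vertically, while the 19 named genes lie near the line. The named genes were chosen to keep their sign and a small p without that mouse, which favours a place near the line.

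SR proteins and hnRNPs, which bind pre-mRNA and steer splice site choice, had 5 positive and 0 negative genes at an unadjusted p under 0.05 of 43 tested (median 0.14), and 6 and 0 without replicate 1 (median 0.05). For this list and those that follow, the shares over all genes are 3.29% positive and 4.63% negative with 16 mice, and 4.15% and 3.35% without replicate 1. Tra2a, an SR-like splicing activator, was at 62.8, 56.5, 76.6 and 82.1 CPM in WT, 54.2, 71.2, 59 and 56.5 CPM in WT + NR, 53.5, 42.8, 34.8 and 37 CPM in hTau.P301S and 58.6, 64.1, 62 and 54.9 CPM in hTau.P301S + NR mice. The hTau.P301S mice lay below the 12 others, as for 0.701% of all genes. Its interaction was 0.72 (standard error 0.23, adjusted p = 0.558, edgeR), or 0.86 (standard error 0.19, adjusted p = 0.346, edgeR) without replicate 1, where DESeq2 called it (adjusted p = 0.021). Hnrnph1, which binds G-rich splicing elements, was at 191 to 233, 149.5 to 205, 130.01 to 141 and 157 to 179.8 CPM in group order, with an interaction of 0.55 (standard error 0.18, adjusted p = 0.558, edgeR).

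Neuronal splicing regulators had 2 positive and 0 negative of 36 (median 0.29), and 4 and 0 without replicate 1 (median 0.19). Those with the smallest p were Rbm4b, an RNA-binding splicing regulator, at 10.3 to 11.8 CPM in hTau.P301S mice and 13.5 to 22.6 CPM in the 12 others, and Sfpq, a paraspeckle protein, at 67.5 to 125 CPM against 137 to 198 CPM. Such an arrangement, with the hTau.P301S mice below the 12 others, was found in 0.701% of all genes. The snRNP components of the spliceosome went both ways, with 2 positive and 5 negative of 57 (median -0.32) and 2 and 2 without replicate 1 (median -0.05). Snrpb, a core Sm protein, was at 48.2 to 64.8, 52.5 to 74.5, 54.2 to 145 and 32.8 to 49 CPM in group order, and its interaction of -1.15 (standard error 0.35) was -0.78 (standard error 0.24) without replicate 1, which held the 145 CPM. Snrpd3, another Sm protein, had -0.61 (standard error 0.30) and -0.31 (standard error 0.20). Adjusted p-values in edgeR were 0.558 for both with 16 mice.

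Nuclear and other long noncoding RNAs had 5 positive and 1 negative of 19 (median 0.49), and 6 and 0 without replicate 1 (median 0.93). Meg3, a maternally expressed imprinted RNA, was at 587, 258, 2428 and 2260.4 CPM in WT, 589, 1093, 561 and 412 CPM in WT + NR, 438, 252, 184 and 229 CPM in hTau.P301S and 706, 461, 503 and 635 CPM in hTau.P301S + NR mice. The NR-treated hTau.P301S mice were all above their vehicle group, as for 6.5% of all genes, and the WT mice ranged more widely than any other group. Its interaction was 2.12 (standard error 0.77), that of Kcnq1ot1, the antisense RNA of the Kcnq1 imprinted domain, 2.03 (standard error 0.74) and that of Sox2ot, which overlaps Sox2, 0.91 (standard error 0.30), each with an adjusted p of 0.558 in edgeR.

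The cold-inducible RNA-binding proteins Rbm3 and Cirbp were both negative with and without replicate 1. Rbm3 was at 53.2, 62.1, 63 and 69.1 CPM in WT, 80, 69.6, 53.9 and 63 CPM in WT + NR, 252, 105, 119 and 119 CPM in hTau.P301S and 63.3, 86.3, 78.2 and 47.4 CPM in hTau.P301S + NR mice. All 4 hTau.P301S mice were above the 12 others, as for 0.9% of all genes. Its interaction was -1.22 (standard error 0.37) and -0.83 (standard error 0.24) without replicate 1, and that of Cirbp -1.15 (standard error 0.35) and -0.77 (standard error 0.22), all with an adjusted p of 0.558 to 0.594 in edgeR.

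Heat shock proteins and co-chaperones had 0 positive and 3 negative of 39 (median -0.15), and 0 and 5 without replicate 1 (median -0.07). Hspa1a, an inducible HSP70, was at 7.12 to 10.7, 8.75 to 24.3, 6.87 to 15.3 and 4.8 to 7.82 CPM in group order, groups that overlap, with an interaction of -1.60 (standard error 0.48, adjusted p = 0.558, edgeR). Lysosomal enzymes and membrane proteins had 0 and 7 of 39 (median -0.44), and 0 and 5 (median -0.24) without replicate 1, where all genes gave 4.63% and 3.35% negative. Ctsd, the lysosomal protease cathepsin D, had 2135 CPM in replicate 1 and 242 to 354 CPM in the other hTau.P301S mice, and its interaction went from -2.26 to -0.96 without that mouse. Neu1, a lysosomal sialidase, went from -0.62 to -0.38. Proteasome subunits had 0 and 6 of 31 (median -0.81), and 0 and 2 (median -0.20), with Psmd2, a subunit of the regulatory particle, at -0.63 and -0.41.

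Glutamate receptors and postsynaptic scaffolds had 8 positive and 2 negative of 40 (median 0.34), and 7 and 2 without replicate 1 (median 0.12). Grm3, a presynaptic and glial metabotropic glutamate receptor, was at 38.1 to 59.3, 29.9 to 45.1, 18.7 to 40.2 and 40.4 to 55.1 CPM in group order (interaction 1.09, standard error 0.32), and Grik1, a kainate receptor subunit, had 0.93 (standard error 0.30). Homer3, a postsynaptic scaffold, was negative at -1.64 (standard error 0.60). GABA receptors, synthesis and transport had 4 and 0 of 24 (median 0.61), and 2 and 0 (median 0.41). Gabrg3, a gamma subunit of GABA-A receptors, was at 18.2 to 25 CPM in hTau.P301S and 32.7 to 42.3 CPM in hTau.P301S + NR mice, with 24.5 to 31.3 CPM in WT and 14.3 to 32.4 CPM in WT + NR mice (interaction 1.01, standard error 0.29). Gad2, a glutamate decarboxylase that makes GABA, was highest among WT and WT + NR mice in the libraries high for striatal markers, at 476 and 413 CPM (interaction 1.61, standard error 0.68). Without the 3 libraries high for striatal markers the GABA list had 5 and 0 (median 0.67) and the glutamate list 7 and 2 (median 0.37).

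Voltage-gated calcium and sodium channels had 2 and 1 of 16 (median 0.41), then 1 and 0 without replicate 1 (median 0.17), and potassium channels 3 and 2 of 45 (median 0.23), then 3 and 1 (median 0.04). Cacna1g, a T-type calcium channel, was at 52.7 to 102, 36.9 to 82, 26.4 to 37.5 and 53.1 to 76.6 CPM in group order (interaction 1.17, standard error 0.36). Scn4b, a sodium channel beta subunit rich in striatal neurons, reached 344 CPM in WT replicate 2 and 164 CPM in hTau.P301S + NR replicate 4. Kcns1, a modifying potassium channel subunit, was negative at -1.22 (standard error 0.36). Clustered protocadherins, which give neurons a surface identity, had 3 and 0 of 54 (median 0.35), and 3 and 0 (median 0.08) without replicate 1. Pcdhb14 was at 7.44 to 13.9 CPM in hTau.P301S and 16 to 18.1 CPM in hTau.P301S + NR mice (interaction 0.83, standard error 0.25). Synaptic vesicle release genes had 2 and 1 of 35 (median 0.10), and 3 and 0 (median -0.13). Every gene named in these 2 paragraphs had an adjusted p of 0.558 in edgeR.

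The enzymes that make and use NAD+, the product of NR, showed no gene past an unadjusted p of 0.05 in edgeR with 16 mice, and no adjusted call with DESeq2 or limma. NAD synthesis and salvage had 0 and 0 of 20 tested of 25 listed (median -0.12), and 0 and 0 without replicate 1 (median -0.10). NAD-consuming enzymes had 0 and 0 of 23 (median -0.20), and 0 and 1 (median -0.07) without replicate 1. That 1 gene was Parp1, a DNA damage sensor that builds poly(ADP-ribose) from NAD+, at 58.9 to 101, 57.8 to 120.1, 99.9 to 138 and 63.7 to 101 CPM in group order (interaction -0.65, standard error 0.32, and -0.72, standard error 0.31, without replicate 1). Sirt6, a chromatin deacylase, was at 12.5 to 20 CPM in hTau.P301S and 7.41 to 11.7 CPM in hTau.P301S + NR mice (interaction -0.59, standard error 0.28, adjusted p = 0.558, edgeR). Mitophagy and mitochondrial biogenesis had 0 and 0 of 29 (median -0.19), and 0 and 0 (median -0.11). The median standard error over all genes, 0.44 on the log2 scale, limits what these counts can show.

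**Figure D5:**
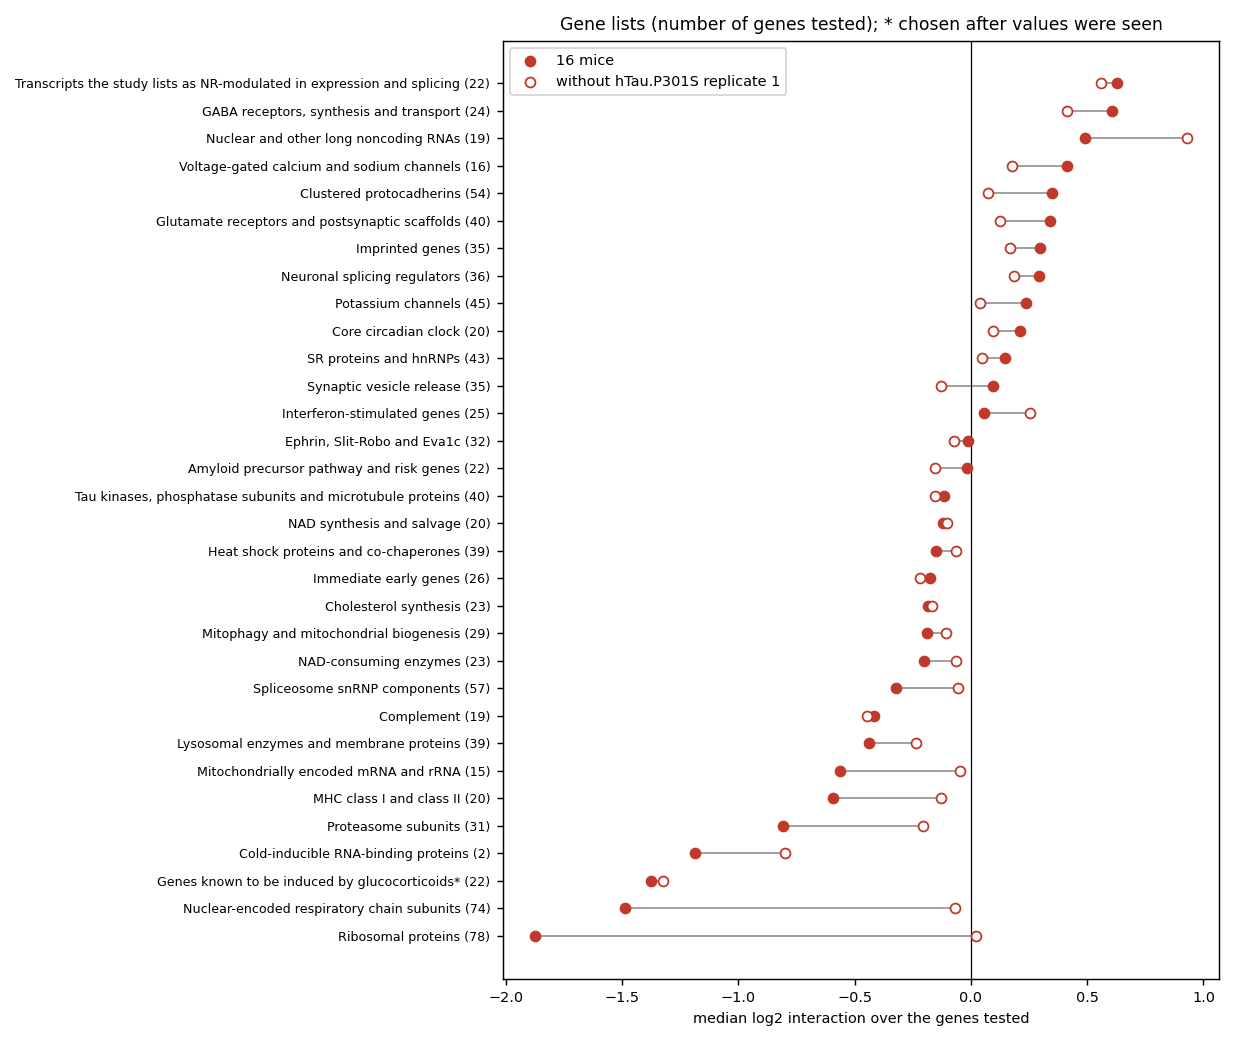
Median log2 interaction over the tested genes of each list, with 16 mice (filled) and without hTau.P301S replicate 1 (open), and the number of genes tested in parentheses. The ribosomal protein median moves from -1.87 to 0.02 and the respiratory chain median from -1.49 to -0.07. The list marked with an asterisk, described under the other observations, has medians of -1.38 and -1.32. It was drawn up after the values had been seen, which favours such medians, so its place beside the other lists is no evidence.

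Genes that the study or earlier results of these data singled out were followed whatever their p here. They were chosen with results of these same mice known, so their values are not independent evidence. Eva1c, a receptor for Slit guidance cues, was at 2.58, 2.69, 2.64 and 2.49 CPM in WT, 2.77, 1.64, 3.16 and 3.22 CPM in WT + NR, 6.15, 3.97, 3.27 and 4.54 CPM in hTau.P301S and 1.7, 2.61, 1.4 and 2.09 CPM in hTau.P301S + NR mice. The 4 hTau.P301S mice lay above the 12 others, as for 0.9% of all genes, with 3.27 and 3.22 CPM as the nearest values. Its interaction was -1.25 (standard error 0.40, adjusted p = 0.558, edgeR), and -1.06 (standard error 0.37, adjusted p = 0.622, edgeR) without replicate 1. Fubp1, a single-strand DNA- and RNA-binding protein, was at 72.6 to 114, 71 to 86.8, 28.5 to 58.9 and 71.9 to 85.4 CPM in group order (interaction 0.87, standard error 0.28, adjusted p = 0.558, edgeR). Zdbf2, an imprinted gene, was at 28.9 to 40.9, 13.8 to 80.1, 9.15 to 24.7 and 37.3 to 58.5 CPM (interaction 1.53, standard error 0.59, adjusted p = 0.558, edgeR). Gabre, a GABA-A receptor subunit, was at 0.256 to 0.545 CPM in hTau.P301S and 3.7 to 4.9 CPM in hTau.P301S + NR mice, but from 0.0541 to 14.6 CPM in WT and from 0.0546 to 13 CPM in WT + NR mice, and the interaction of 3.93 had a standard error of 1.83. It was 2.13 without WT replicate 2 and 7.03 without WT + NR replicate 3. The highest Gabre values in the WT groups were in the 2 libraries high for striatal markers.

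The 22 transcripts that the study lists as changed by NR in expression and splicing had 13 positive and 1 negative gene of 22 at an unadjusted p under 0.05 (median 0.63), and 13 and 1 without replicate 1 (median 0.56), where 3.29% of all genes were positive with 16 mice and 4.15% without replicate 1. The study chose them on these mice, so their direction is not independent evidence. C2cd5 was at 25.9 to 34.8 CPM in hTau.P301S and 42.7 to 47.2 CPM in hTau.P301S + NR mice (interaction 0.85, standard error 0.25), and Iqce at 17.2 to 19.1 and 22 to 24.1 CPM (interaction 0.62, standard error 0.19). For both, the vehicle-treated hTau.P301S mice lay below the 12 others, as for 0.701% of all genes.

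The mouse Mapt gene, which encodes the endogenous Tau, had an interaction of 0.27 (standard error 0.30, adjusted p = 0.744, edgeR), with 369.6 to 447, 413 to 493, 188 to 477 and 425 to 484 CPM in group order. It was 0.059 without replicate 1 and 0.42 without hTau.P301S replicate 3. Thy1, whose promoter drives the transgene, had 462 to 633, 424 to 579.6, 804 to 1639.9 and 667 to 845 CPM, and its interaction was -0.62 (standard error 0.29) or -0.38 (standard error 0.21) without replicate 1. Gm13394, a processed pseudogene with at most 2.31 CPM in WT mice of either treatment, was at 569, 234, 297 and 282 CPM in hTau.P301S and 180.3, 247, 171 and 226 CPM in hTau.P301S + NR mice (interaction -0.97, standard error 0.36, and -0.61, standard error 0.24). The last 2 groups overlapped, and the adjusted p was 0.558 for Thy1 and Gm13394 in edgeR. Counts at the mouse Mapt gene need not include the human transgene, whose level was not measured here. Genes of Tau kinases, phosphatase subunits and microtubules had 0 positive and 3 negative of 40 (median -0.11), and 0 and 4 (median -0.15) without replicate 1, with Thy1 counted in the list. Tubb2a, a beta-tubulin, had -0.86 (standard error 0.28) and Ppp2r1a, the scaffold subunit of the phosphatase PP2A, -0.65 (standard error 0.24).

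Disease-associated microglia markers had 0 positive and 6 negative of 16 (median -1.25), and 0 and 2 (median -0.52) without replicate 1. Their summed level ran from 2106 to 3649 CPM in WT, 2130.2 to 3900 CPM in WT + NR, 2271 to 12643 CPM in hTau.P301S and 2882 to 3237 CPM in hTau.P301S + NR mice. Cst7, a cysteine protease inhibitor of activated microglia, was at 67.4 CPM in replicate 1, 0.997 to 5.01 CPM in the other hTau.P301S mice and 32.3 CPM in WT + NR replicate 1 (interaction -7.76, then -4.97 without replicate 1 and -3.63 without that WT + NR mouse). Tyrobp, an adaptor of the TREM2 receptor, was at 583 CPM in replicate 1 and 10.8 to 22.2 CPM in the other hTau.P301S mice, and its interaction went from -3.57 to -0.19. Trem2 went from -2.88 to -0.69. Homeostatic microglia markers had 1 and 0 of 12 (median -0.48), and 1 and 0 (median 0.03). Complement genes had 1 and 6 of 19 (median -0.42), and 2 and 1 (median -0.45) without replicate 1. C1qb, a subunit of the initiating complex, went from -2.17 to -0.47 and C5ar1, the receptor of C5a, stayed at -1.13 and -1.14. C4a, also of this list, was positive and ranged from 1.20 to 1.74 with 1 mouse left out. In bulk tissue, fewer cells of a type and less RNA per cell cannot be told apart.

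Astrocyte markers had 0 and 0 of 16 (median -0.39), and 0 and 3 (median -0.42) without replicate 1, oligodendrocyte and myelin markers 0 and 1 of 19 (median -0.26), then 1 and 1 (median 0.07), and endothelial and mural markers 1 and 1 of 13 (median 0.50), then 2 and 0 (median 0.26). Flt1, a VEGF receptor of endothelium, was at 5.13 to 50.4 CPM in hTau.P301S and 67.8 to 74.1 CPM in hTau.P301S + NR mice (interaction 1.34, standard error 0.64), and Tek, the angiopoietin receptor, at 1.37 to 8.37 and 13.6 to 15.5 CPM (interaction 1.28, standard error 0.58). The 4 hTau.P301S + NR mice were above the 4 hTau.P301S mice for both genes, as for 6.5% of all genes, and the WT groups covered both ranges in part. With 1 mouse left out the interaction of Tek ranged from 0.97 to 1.48, and that of Flt1 stayed positive. Ly6c1, also of this list, was negative and ranged from -1.41 to -0.38 with 1 mouse left out, the -0.38 without replicate 1. Interneuron markers had 2 and 1 of 15 (median -0.15), then 2 and 0 (median 0.26).

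Striatal markers had 10 positive and 0 negative of 13 (median 3.14), and 6 and 0 (median 3.10) without replicate 1. Adora2a, an adenosine receptor of striatal neurons, was at 150.3 CPM in WT replicate 2, 13.8 CPM in WT + NR replicate 3 and 48.8 CPM in hTau.P301S + NR replicate 4, and at 1.55 to 5.48 CPM in the 13 others. The 3 libraries fall in 3 of the 4 groups. Without them the median of the striatal list was 0.80, with 0 positive and 0 negative, and without WT replicate 2 alone it was 0.88, also with 0 and 0. Hippocampal pyramidal and granule cell markers had 1 and 1 of 17 (median -0.66), then 1 and 0 (median -0.62), thalamic and habenular markers 0 and 0 of 12 (median 0.36), then 0 and 0 (0.57), and neocortical markers 1 and 0 of 10 (median 0.67), then 2 and 0 (0.42). Choroid plexus markers had 0 and 0 of 15 (median -1.04), then 0 and 0 (-1.36). Meningeal, ependymal, red blood cell and sex-linked lists had no gene past an unadjusted p of 0.05 in edgeR with either set of mice.

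Immediate early genes of neuronal activity had 0 and 0 of 26 (median -0.18), interferon-stimulated genes 0 and 0 of 25 (median 0.05) and core clock genes 1 and 0 of 20 (median 0.21). Cholesterol synthesis had 0 and 2 of 23 (median -0.18), amyloid precursor and risk genes 1 and 1 of 22 (median -0.02), and ephrin and Slit-Robo genes with Eva1c 1 and 4 of 32 (median -0.01), the 4 beside 4.63% of all genes. Imprinted genes had 2 and 0 of 35 (median 0.30), Zdbf2 and Peg3, a zinc-finger protein at 95.7 to 247 CPM in hTau.P301S and 358 to 446 CPM in hTau.P301S + NR mice (interaction 1.16, standard error 0.48). Without replicate 1 these counts were 0 and 0, 1 and 0, 1 and 1, 0 and 1, 1 and 0, 0 and 2, and 2 and 0 in the same order.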

How the data were processed

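Hippocampal RNA was sequenced from 16 mice, 1 library each, in 4 groups taken from the sample labels. Per the study's methods, the authors trimmed reads with Trim Galore after FastQC, aligned them to mm10 with STAR, made BAM files with SAMtools and counted reads per gene with RSEM. The deposited table holds raw counts per gene and sample, whole numbers, and a column of gene lengths that was not used. Whether counting used strand is not given in the sources used here, and the study also gives an age and a treatment time other than the labels'. Here edgeR 4.0.16 (R 4.3.3) was fitted to the counts with a mean for each group, filterByExpr and TMM scaling, and its quasi-likelihood test with Benjamini-Hochberg adjustment over all genes tested gave the interaction. Values in CPM are counts per 1000000 scaled by TMM. DESeq2 1.42.0, limma 3.58.1 with voom and sample weights, DESeq2 size factors, a minimum of 10 counts, no filter, mitochondrial genes removed, a robust fit, each mouse left out in turn and the replicate number as a block were alternatives. A term for Y-linked counts and sets of 13 and 12 mice without libraries high for striatal markers were added after seeing the data. The main edgeR fit and DESeq2 were tested on simulated data, with all mice and without hTau.P301S replicate 1, and the other alternatives were not. The simulated means came from the groups other than hTau.P301S, so they did not hold the profile of that library. Single values were compared by exact permutation of the genotype labels (scipy 1.17.1).

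The genes named are the 10 positive and 10 negative with the smallest p among those with a mean of at least 1 CPM, the same sign and an unadjusted p under 0.05 without hTau.P301S replicate 1, then the 5 smallest adjusted p of DESeq2, up to 4 genes a list by p, and genes named by the study. Of the 10 negative genes, 1 is not reported here. Members and lists were chosen with earlier results of these data known. Coordinates are of GRCm38 (GENCODE M21), and 17538 of the 17555 tested genes had a record. Promoter windows are RefSeq sequence. The labels do not say that replicate numbers pair the mice, and the main fit treats them as unpaired.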

Additional observations from a re-analysis of the deposited data

Results flagged for a closer look

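In a group of 4 mice, a value was set aside here when the ratio of its gap to the nearest other and the range exceeded Dixon's critical value for 4, which chance does in about 1 in 20 groups. Of 252 groups of values examined, 21 met it. The groups examined did not cover every gene and list in this report, so the flagged values are not a complete set. Tyrobp, Ctsd and Rplp1, for which hTau.P301S replicate 1 stood far above the rest of its group, are described above and not flagged here.

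Among cell markers, 1 WT mouse, replicate 2, was low for hippocampal markers at 872 CPM and high for striatal markers at 3071 CPM. hTau.P301S + NR replicate 4 was high for striatal markers at 1147 CPM. Choroid plexus markers had a single high mouse at 6457 CPM in hTau.P301S and at 4621 CPM in hTau.P301S + NR. Interneuron markers had 1 hTau.P301S mouse at 3405 CPM, and endothelial and mural markers 1 hTau.P301S + NR mouse at 412 CPM, below the other 3.

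Among genes, WT mice had single low values of Gm2260 at 0.056 CPM (under 3 counts), Gdpd2 at 2.9 CPM and Mapt at 369.6 CPM, and a single high value of Sgk1 at 80.5 CPM. WT + NR mice had single high values of Alpl at 23 CPM, Sult1a1 at 11.4 CPM and Gabre at 13 CPM, and single low values of Srrt at 72.7 CPM, Ddit4 at 49.4 CPM and Snrpd3 at 49.7 CPM. hTau.P301S replicate 1 was the single high mouse for Mt1 at 2544 CPM, Mt2 at 67.9 CPM, Cebpd at 136 CPM and Snrpd3 at 140.2 CPM. Without that mouse the interaction of Mt1 went from -2.19 to -1.37, of Mt2 from -5.53 to -2.70, of Cebpd from -2.12 to -1.12 and of Snrpd3 from -0.61 to -0.31.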

How the results depend on the processing

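With all 16 mice edgeR called 0 genes, while DESeq2 called 18, limma with sample weights 15, and DESeq2 without hTau.P301S replicate 1 called 36, against 0 for edgeR in the same mice. Leaving out 1 mouse at a time gave 0 to 1 genes, the 1 without hTau.P301S replicate 3. The 578 positive genes at an unadjusted p under 0.05 became 1226 with no filter, 1571 with limma and 1254 in the 12 mice, and ranged from 414 to 880 with 1 mouse left out, the 880 without WT + NR replicate 3. The 812 negative genes became 1431 with limma and 524 with the Y-linked term and no hTau.P301S replicate 1, and ranged from 486 to 1798 with 1 mouse left out. They were 1798, 1246 and 1632 without hTau.P301S replicates 2, 3 and 4, and 486, 492, 488 and 492 without WT replicate 4, WT + NR replicate 1 and hTau.P301S + NR replicates 1 and 3. With the replicate block the negative count was 457 (positive 530), and 530 without hTau.P301S replicate 1. The labels do not say that the numbers pair the mice. Of 24 same-numbered pairs 8 correlated above 0.1 (range -0.54 to 0.42), and 5 of 16 mice correlated best with their own number. These correlations showed no clear pairing and cannot settle whether one exists.

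The interaction in mitochondrial share ranged from -3.09 to 0.185 percentage points with 1 mouse left out, and that in detected genes from 1373 to 2639. Of 139 genes followed, among them the genes named in the text, 5 changed sign under any of 30 alternatives. Of the 80 other genes with the smallest p in their lists, not named here, 21 did, 18 of them with 1 mouse left out. Among the 5, Tyrobp was at 0.15 in limma and Klf9 at 0.078 with the Y-linked term. With 1 mouse left out Pdk4 ranged from -0.78 to 0.039, Zbtb16 from -0.85 to 0.0074, Dusp1 from -0.37 to 0.21 and Klf9 from -0.55 to 0.063, each highest without hTau.P301S replicate 2. Of 1408 list medians under alternatives, 114 moved by more than the spread between mice, and 16 of 47 lists moved without hTau.P301S replicate 1. Mitochondrial genes removed, or a minimum of 10 counts, left no gene of the mitochondrially encoded or sex-linked list. Causes were not tested.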

Other observations

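Several of the negative genes, among them Plin4, Sgk1, Nfkbia, Arrdc2 and Mfsd2a, are known from other settings to be induced by glucocorticoids, the adrenal steroid hormones. A list of 22 genes known for this was therefore drawn up after the values had been seen, and it includes those 5, so it is described without a test. All 22 had a negative interaction, 15 of them with an unadjusted p under 0.05 in edgeR where 4.63% of all genes were negative at that p, with a median of -1.38 against -0.02 over all genes. Without hTau.P301S replicate 1 the count was again 15, where 3.35% of all genes were negative at that p, with a median of -1.32. In 7 of the 22 every vehicle-treated hTau.P301S mouse lay above the 12 others, as for 0.9% of all genes. The whole list was drawn up with the values known, which favours such counts. The shares over all genes thus describe the list and add no evidence. The mean log2 CPM of the list, relative to the WT mean, was 0.67, 1.81, 0.81 and 1.27 in hTau.P301S mice and -0.13 to 0.33 in hTau.P301S + NR mice, with 0.11 to 0.42 in WT + NR mice. The highest value was in hTau.P301S replicate 2. Without that mouse Pdk4 (0.039), Zbtb16 (0.0074), Dusp1 (0.21) and Klf9 (0.063), all genes of the list, had a positive interaction.

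Fkbp5, a co-chaperone of the glucocorticoid receptor, was at 56.4, 191, 93.7 and 111 CPM in hTau.P301S, 43.2 to 76.9 CPM in hTau.P301S + NR, 45.6 to 60.9 CPM in WT and 36 to 85.4 CPM in WT + NR mice (interaction -1.09, standard error 0.45). Tsc22d3, the leucine zipper protein GILZ, was at 84.2 to 149 CPM in hTau.P301S and 63.1 to 70.1 CPM in hTau.P301S + NR mice (interaction -1.01, standard error 0.31). Map3k6 had -1.86, Ddit4 -1.20, Hif3a -1.99 and Cdkn1a -1.99. Without hTau.P301S replicate 2 Cdkn1a was at -0.72 and Fkbp5 at -0.72 too. The metallothioneins, which bind zinc and copper, also respond to metals. Mt1 was at 2544, 699, 495 and 682 CPM in hTau.P301S and 217 to 436 CPM in hTau.P301S + NR mice, with 167 to 390.3 CPM in the WT groups, and its interaction went from -2.19 to -1.37 without replicate 1. Mt2 went from -5.53 to -2.70. Each of these genes had an adjusted p of 0.558 in edgeR with 16 mice. Other genes of the list differed less, since Per1 had -0.18, Klf9 -0.18, Dusp1 -0.17, Pdk4 -0.44 and Zbtb16 -0.45, with adjusted p from 0.77 to 0.926 in edgeR.

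The Mt2 sequence is shown for its matches to the metal response element core, TGCACNC or TGCGCNC on either strand. It is the 250 bases before the RefSeq start in GRCm38.p6, with the 3 matches in capitals.

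Mt2, chr8:94172368-94172617, plus strand: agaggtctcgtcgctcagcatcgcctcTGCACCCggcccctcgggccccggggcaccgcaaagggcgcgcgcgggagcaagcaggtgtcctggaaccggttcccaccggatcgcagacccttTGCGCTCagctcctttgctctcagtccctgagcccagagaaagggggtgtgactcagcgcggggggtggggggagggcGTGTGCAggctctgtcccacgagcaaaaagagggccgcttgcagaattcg

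These start at positions -223, -128 and -50 relative to the start site. The core is short, and 21.4% of the 32851 windows hold it at least once. Of 28 genes among the 19 named ones and this list that have a window, 9 hold the metal response core, and 1 each the glucocorticoid and NF-kappaB motifs given with Sgk1 and Nfkbia. These are counts of genes, some of which have several windows, as Sgk1 has 6. They are thus not on the same scale as the shares of windows and cannot be compared with them.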
